A study of Mus musculus with 10 samples.

Results

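The genes described here are 10 transcription factors of the inner retina: the LIM homeodomain factors Lhx1 and Isl1, the cut homeodomain factors Onecut1, Onecut2 and Onecut3, the homeodomain factors Prox1 and Meis2, the paired box factor Pax6, and the AP-2 factors Tfap2a and Tfap2b. They were chosen by name with earlier results of these data known, and each was found once in a table of 57010 genes. All 10 passed the filter on low counts, which kept 15539 genes for testing. RNA was measured by bulk sequencing of retinas from mice aged 6 to 8 weeks at injection, collected 14 days after a vector was injected into the vitreous, the gel that fills the eye. Of the 2 groups of 5 mice, 1 received AAV2-GFP and the other AAV206-GFP, adeno-associated virus capsids that deliver the same reporter, green fluorescent protein. Every mouse was thus injected and carried a vector, and with no uninjected retina analysed here the comparison is of 1 vector with the other. The labels give no strain, sex or promoter, and do not say whether 1 or both eyes of a mouse made up a library.

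Horizontal cells and amacrine cells are the interneurons that carry signals sideways through the retina, horizontal cells at the photoreceptor synapse and amacrine cells at the bipolar and ganglion cell synapse. Transcription factors specify both types in development, and many stay on in the mature cells, which makes them common identity markers. In the mature mouse retina Lhx1 and Onecut factors are among the markers of horizontal cells. What other cells add to their levels was not tested. The AP-2 factors mark amacrine cells and, for Tfap2b, also horizontal cells, and Pax6 is shared by amacrine, horizontal and ganglion cells. Isl1, Prox1 and Meis2 are shared too. Isl1 is also found in ganglion cells and ON bipolar cells, Prox1 in bipolar cells, and Meis2 in amacrine and ganglion cells. In whole retina, fewer cells of a type and less RNA per cell cannot be told apart.

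Depth was similar across the libraries, with 10989843 to 12752604 estimated counts each, and levels are given as CPM, the count relative to the library size after scaling by the trimmed mean of M values. A level of 3 counts, below which levels are not distinguished, was 0.232 to 0.274 CPM. The labelled tissue matched its markers: the rod transducin gene Gnat1 lay between 9278 and 11628 CPM in all 10 libraries. Lens genes, from tissue next to the retina in which Prox1 and Pax6 are also active, summed to between 13.6 and 37.8 CPM over 12 genes with AAV2-GFP and to between 1.92 and 15.3 CPM with AAV206-GFP, with Lim2 at 0 in every library. Leukocyte genes summed to 394 CPM over 12 genes in AAV2-GFP replicate 1, to between 7.09 and 21.8 CPM in the other AAV2-GFP libraries, and to between 5.11 and 10.6 CPM with AAV206-GFP. The part of lens cells and leukocytes in the levels below was not tested.

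No difference between the capsids was detected for any of the 10 factors. With edgeR's quasi-likelihood test, 0 of the 10 had an adjusted p-value under 0.05, where 11.2% of all tested genes did (1747 genes: 924, or 5.95%, higher and 823, or 5.3%, lower with AAV206-GFP). At an unadjusted p-value under 0.05 the count was also 0 of 10, against 28% of all tested genes. DESeq2 and limma-voom likewise called 0 of the 10, against 14.8% and 10.6% of all genes. In 0 of the 10 factors were the libraries of the groups fully separated, against 9.78% of all tested genes. The median log2 fold change of AAV206-GFP over AAV2-GFP was 0.0032 over the factors and -0.0095 over all tested genes, and 5 of the 10 had a negative value. With 10 genes a count of 0 is near what the background share of 11.2% gives, and it does not show that the levels were the same; the interval of each difference is given below.

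**Figure D1:**
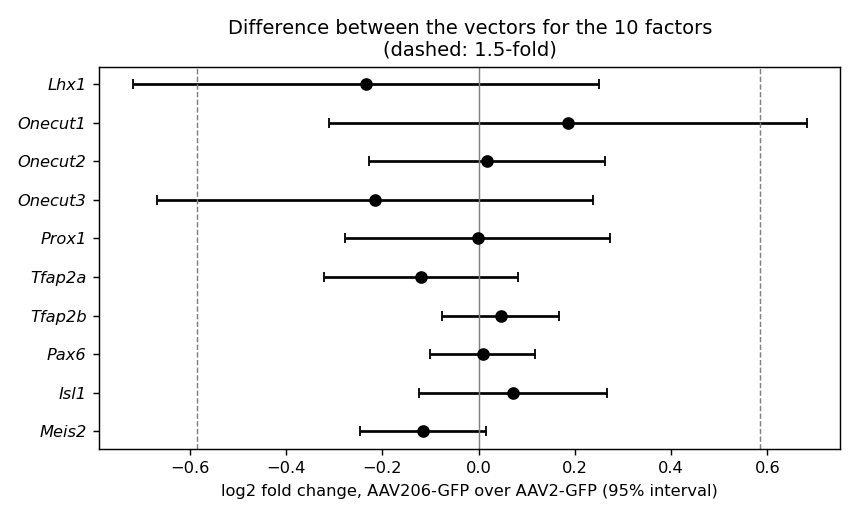
Log2 fold change of AAV206-GFP over AAV2-GFP for the 10 factors, with 95% intervals from the edgeR fit over 5 libraries a group; dashed lines mark a 1.5-fold difference. Every interval includes 0, and those of Lhx1, Onecut1 and Onecut3 extend past 1.5-fold.

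How large a difference the data leave room for depended on the gene. For 7 of the 10 factors the 95% interval of the difference lay wholly within 1.5-fold in either direction, as it did for 67.2% of all tested genes; this limit was chosen after the values were seen. Lhx1, Onecut1 and Onecut3 were the exceptions. They were also 3 of the 4 factors with the fewest counts, the fourth being Onecut2, and their spread between mice of 1 group was 20.6% to 31.6% of the mean, against 11.7% in the median tested gene in both groups.

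Divided by the length of their exons, the levels of the factors spanned a wide range, with those of Lhx1 and the Onecut factors lowest. Pax6 was highest at 43.6 CPM per kb over all libraries, and its lowest library (42.4) lay above the highest library of every other factor. Meis2, Tfap2b, Isl1 and Prox1 followed at 26.4, 25.99, 25.3 and 21.5 CPM per kb. Neighbours among these 4 overlapped in range: Meis2 was above Tfap2b in 7 of 10 libraries and Tfap2b above Isl1 in 5 of 10, while Isl1 was above Prox1 in 10 of 10. Tfap2a stood alone at 7.19 CPM per kb. Below it came Onecut1 at 1.49, Lhx1 at 1.46, Onecut3 at 1.28 and Onecut2 at 0.642 CPM per kb. Of these, Onecut1 was above Lhx1 in 6 of 10 libraries and Lhx1 above Onecut3 in 8 of 10, and Onecut2 was below all 3 others in every library. The annotated transcript of Onecut2 is 16234 bases long, and its CPM, higher than those of the other 3, did not correspond to a higher level per length. With the longest transcript in place of all exons, an alternative added after the data were seen, the order of the 10 was the same and Pax6 stood at 67.99 CPM per kb. Both lengths are the same for Onecut1, Onecut2, Onecut3 and Isl1, so this alternative could not change the order of the Onecut factors.

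**Figure D2:**
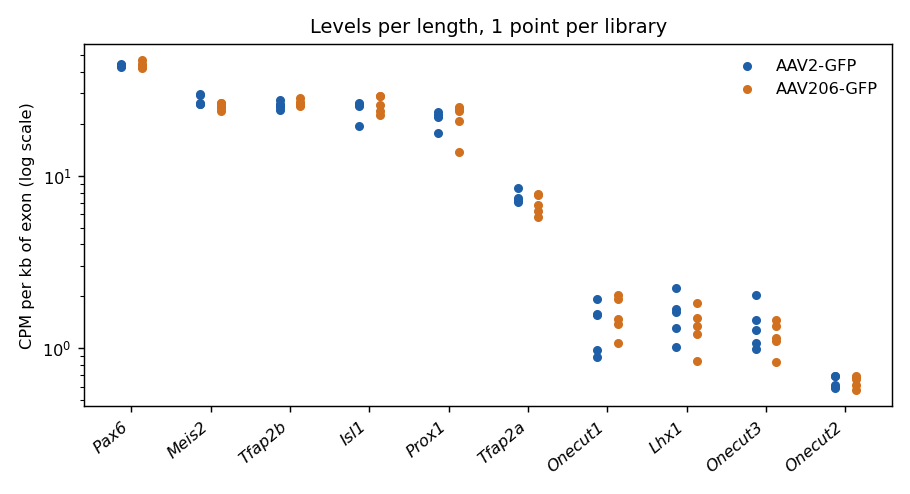
CPM per kb of annotated exon (log scale) for each factor, 1 point per library, blue for AAV2-GFP and orange for AAV206-GFP. Pax6 lies between 42.4 and 46.5, and Onecut2 between 0.575 and 0.696.

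Coordinates are those of GENCODE M21 on GRCm38, the assembly that mm10 denotes. Lhx1 (ENSMUSG00000018698, chr11:84518284-84525535, minus strand) directs the migration of horizontal cells to their layer and remains on in them. Its level was 3.98, 5.12, 6.34, 8.71 and 6.58 CPM in AAV2-GFP replicates 1 to 5 and 5.81, 4.74, 5.26, 7.09 and 3.31 CPM in AAV206-GFP replicates 1 to 5. The highest library of each group was replicate 4, and the groups overlapped over most of their range. Means were 6.15 ± 1.77 and 5.24 ± 1.39 CPM (SD, n = 5), which gave a log2 fold change of -0.23 ± 0.23 (SE; edgeR adjusted p = 0.537). In folds the 95% interval ran from 0.608 to 1.19.

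Among the Onecut factors, Onecut1 acts upstream of Lhx1 in the horizontal cell programme and is needed for the formation and upkeep of these cells. Onecut1 (ENSMUSG00000043013, chr9:74861921-74891781, plus strand) was at 3.53, 6.29, 6.19, 3.87 and 7.60 CPM with AAV2-GFP and at 5.47, 5.84, 7.68, 8.07 and 4.24 CPM with AAV206-GFP. Both low AAV2-GFP libraries, replicates 1 and 4, were below every AAV206-GFP library. Mean levels of Onecut1 were 5.50 ± 1.74 and 6.26 ± 1.60 CPM (SD, n = 5), which gave a log2 fold change of 0.19 ± 0.23 (SE) and a fold interval from 0.807 to 1.60 (edgeR adjusted p = 0.641). These same 2 libraries were the lowest of their group, so leaving both out could only lower the estimate. It then changed sign to -0.10, and it too did not pass. In the fits without 1 library the estimate stayed positive, from 0.064 to 0.33. An annotated long non-coding gene on the same strand, Gm20649, covers 2171 of the 3957 exonic bases of Onecut1, and Onecut1 carried decimals in 1 library, so some of its reads may be shared. The estimated counts of Gm20649 did not exceed 7.72 in any library, against 39 to 90 for Onecut1.

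Onecut2 (ENSMUSG00000045991, chr18:64340020-64400987, plus strand) varied far less between mice than its relatives. It measured 9.58, 9.97, 9.74, 11.3 and 11.2 CPM with AAV2-GFP and 10.01, 11.04, 10.8, 11.3 and 9.33 CPM with AAV206-GFP. The spread came to 7.93% of the AAV2-GFP mean and 7.72% of the AAV206-GFP mean, below the 9.07% that counting alone gives at its mean count. The log2 fold change was 0.018 ± 0.12 (SE), and the fold interval ran from 0.854 to 1.20 (edgeR adjusted p = 0.941).

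Onecut3 (ENSMUSG00000045518, chr10:80494835-80517276, plus strand) is the third member of the family. Its values were 5.15, 6.11, 4.72, 9.76 and 7.01 CPM with AAV2-GFP and 6.48, 5.29, 6.99, 5.47 and 3.99 CPM with AAV206-GFP. AAV2-GFP replicate 4 was again the highest library, as for Lhx1. Means of 6.55 ± 2.00 and 5.64 ± 1.16 CPM (SD, n = 5) gave a log2 fold change of -0.22 ± 0.21 (SE) and a fold interval from 0.629 to 1.18 (edgeR adjusted p = 0.543). Leaving out that library, which was singled out by these high values, could only raise both estimates. The log2 fold change was then -0.026 for Onecut3 and -0.075 for Lhx1, both nearer to 0 than with all libraries. Over all fits without 1 library it ranged from -0.32 to -0.026 for Onecut3 and from -0.37 to -0.075 for Lhx1.

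Ratios of 2 genes within a library do not depend on scaling, and they overlapped between the groups too. The log2 ratio of Onecut2 to Onecut1 counts was 0.97 ± 0.47 in the AAV2-GFP libraries and 0.78 ± 0.29 in the AAV206-GFP libraries, and that of Onecut1 to Lhx1 was -0.17 ± 0.58 and 0.26 ± 0.23 (SD, n = 5). For the second ratio AAV2-GFP replicate 4, at -1.16, lay apart from the other 9 libraries, which held values from -0.17 to 0.54. These ratios were described and not tested.

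Prox1 (ENSMUSG00000010175, chr1:190118035-190170714, minus strand) promotes horizontal cell fate in the developing retina and is later found in horizontal, AII amacrine and bipolar cells. It read 148, 184, 185, 196 and 189 CPM with AAV2-GFP and 205, 199, 173, 211 and 115 CPM with AAV206-GFP. In both groups 1 library was low, replicate 1 with AAV2-GFP and replicate 5 with AAV206-GFP, and the other 8 lay between 173 and 211 CPM. Group means were nearly the same, 181 ± 18.8 and 180 ± 39.4 CPM (SD, n = 5), with a log2 fold change of -0.0019 ± 0.13 (SE) and a fold interval from 0.825 to 1.21 (edgeR adjusted p = 0.995). Without AAV206-GFP replicate 5 the log2 fold change was 0.13, and without AAV2-GFP replicate 1 it was -0.064; neither passed. Its sign was also positive under upper-quartile scaling (0.0078). The antisense gene Prox1os overlaps 133 exonic bases of Prox1 and held 24 to 44 counts a library, against 1354 to 2436 for Prox1; the strand setting of the counting was not given in the sources used here.

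**Figure D3:**
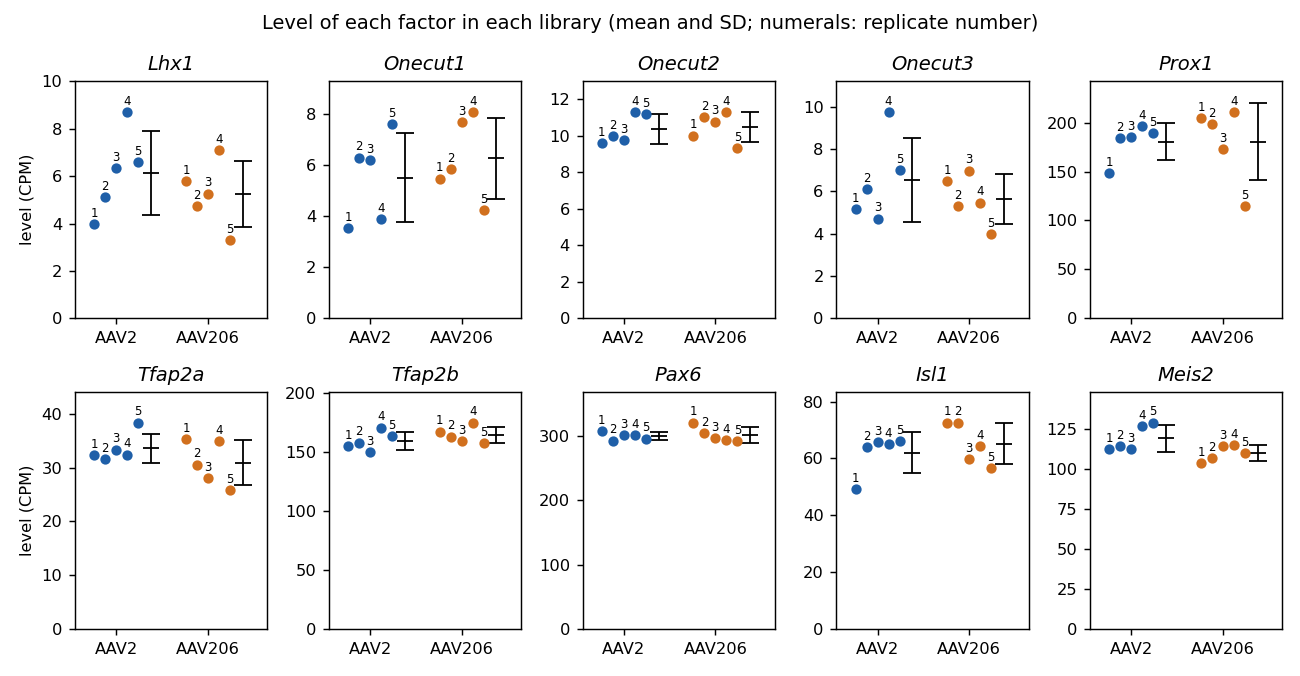
CPM of each factor in each library, AAV2-GFP in blue and AAV206-GFP in orange, numbered by replicate, with the group mean and SD in black beside the points; axes start at 0 and differ between panels. The groups overlap in all 10 panels, and replicate 1 of AAV2-GFP and replicate 5 of AAV206-GFP are the low points of Prox1.

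The AP-2 factors Tfap2a and Tfap2b act together in the developing retina to specify amacrine and horizontal cells and are retained in amacrine cells. Tfap2a (ENSMUSG00000021359, chr13:40715302-40738376, minus strand) was at 32.4, 31.5, 33.3, 32.4 and 38.4 CPM with AAV2-GFP and at 35.3, 30.6, 28.1, 34.9 and 25.9 CPM with AAV206-GFP. With AAV2-GFP 4 libraries lay within 31.5 to 33.3 CPM and replicate 5 above them, while the AAV206-GFP libraries were spread on both sides and 3 of them lay below every AAV2-GFP library. Tfap2a had a log2 fold change of -0.12 ± 0.095 (SE) and a fold interval from 0.801 to 1.06 (edgeR adjusted p = 0.431). Antisense genes overlap its exons, namely Gm26688, Gm47061 and Gm47067, none with more than 17 counts in a library against at least 305 for Tfap2a, and Tfap2a carried decimals in 4 libraries.

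Tfap2b (ENSMUSG00000025927, chr1:19208914-19238576, plus strand) was measured more tightly. Its levels were 155, 158, 150, 171 and 163 CPM with AAV2-GFP and 167, 163, 160, 175 and 158 CPM with AAV206-GFP. The spread was 5.04% and 4.20% of the mean, and the groups overlapped except for the highest AAV206-GFP library and 2 AAV2-GFP libraries at the low end. A log2 fold change of 0.046 ± 0.057 (SE) gave a fold interval from 0.949 to 1.12 (edgeR adjusted p = 0.642). Within a library the log2 ratio of Tfap2a to Tfap2b was -2.25 ± 0.12 in the AAV2-GFP libraries and -2.42 ± 0.14 in the AAV206-GFP libraries (SD, n = 5), with the groups overlapping and AAV206-GFP replicate 5 lowest at -2.61.

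Pax6 (ENSMUSG00000027168, chr2:105668900-105697364, plus strand), the master regulator of eye development that persists in amacrine, horizontal and ganglion cells, was the steadiest of the 10. It was at 308, 293, 302, 302 and 296 CPM with AAV2-GFP and at 321, 304, 297, 294 and 292 CPM with AAV206-GFP. Spread between mice was 1.90% of the mean with AAV2-GFP, close to the 1.69% that counting alone gives, and 3.87% with AAV206-GFP. Mean levels were 300.1 ± 5.70 and 302 ± 11.7 CPM (SD, n = 5), which gave a log2 fold change of 0.0083 ± 0.051 (SE; edgeR adjusted p = 0.938). The fold interval, 0.933 to 1.08, was the narrowest of the 10 in log2 width.

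Isl1 (ENSMUSG00000042258, chr13:116298281-116309689, minus strand) is needed for ganglion, cholinergic amacrine and ON bipolar cells. With AAV2-GFP it read 49.2, 64.0, 65.7, 64.9 and 66.0 CPM, so that replicate 1 stood below 4 nearly equal libraries. With AAV206-GFP it read 72.6, 72.6, 59.7, 64.3 and 56.7 CPM, lowest in replicate 5. Isl1 had a log2 fold change of 0.072 ± 0.092 (SE) and a fold interval from 0.918 to 1.20 (edgeR adjusted p = 0.647). Leaving out AAV2-GFP replicate 1 brought its log2 fold change to 0.00046. Relative to Pax6 in the same library, the log2 ratio of Isl1 counts was -2.28 ± 0.20 in the AAV2-GFP libraries and -2.22 ± 0.12 in the AAV206-GFP libraries (SD, n = 5), and that of Prox1 was -0.74 ± 0.18 and -0.77 ± 0.34. The low libraries stayed low on this measure, with Prox1 to Pax6 at -1.06 in AAV2-GFP replicate 1 and at -1.35 in AAV206-GFP replicate 5.

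Meis2 (ENSMUSG00000027210, chr2:115863064-116065839, minus strand), a homeodomain factor that acts with Pax6 in eye development and is found in GABAergic amacrine cells, came nearest to the threshold. It was at 113, 115, 113, 127 and 129 CPM with AAV2-GFP and at 104, 107, 115, 115 and 110 CPM with AAV206-GFP. AAV206-GFP libraries fell below every AAV2-GFP library in 3 of 5 cases, and AAV2-GFP replicates 4 and 5 were above every AAV206-GFP library. Means of 119 ± 8.20 and 110 ± 4.84 CPM (SD, n = 5) gave a log2 fold change of -0.12 ± 0.061 (SE) and a fold interval from 0.843 to 1.01 (edgeR adjusted p = 0.231). The unadjusted edgeR p of Meis2 was 0.0778. Its estimate was negative in all 21 alternative fits, from -0.14 to -0.086, and its smallest adjusted p among them was 0.183.

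The lowest values of the factors gathered in 2 libraries, 1 of each group. AAV206-GFP replicate 5 was the lowest of its group in 9 of the 10 factors, Meis2 being the exception, whereas it was lowest in 19.6% of all tested genes. AAV2-GFP replicate 1 was the lowest of its group in 5 of the 10, namely Lhx1, Onecut1, Onecut2, Prox1 and Isl1, against 23.5% of all tested genes. These 2 libraries were singled out after their values were seen, and the counts are a description. Lhx1 in AAV206-GFP replicate 5 was at 57.8% of the mean of the other 4 libraries of its group, Prox1 at 58.3%, Onecut1 at 62.7%, Onecut3 at 65.8% and Tfap2a at 80.3%. Pax6 and Tfap2b, by contrast, were at 96.0% and 94.8% there. In AAV2-GFP replicate 1 Onecut1 was at 58.9%, Lhx1 at 59.5%, Isl1 at 75.4% and Prox1 at 78.5% of the other 4, and Pax6 was at 103%.

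Bipolar cell genes were low in the same 2 libraries. Of the 11 genes of that list, 9 were lowest of their group in AAV206-GFP replicate 5 and 9 in AAV2-GFP replicate 1. Trpm1, the cation channel of ON bipolar cells, was at 44.7% of the other 4 libraries in AAV206-GFP replicate 5 and at 69.6% in AAV2-GFP replicate 1, Vsx1 at 53.0% and 77.1%, and Lrtm1 at 57.7% and 72.6%. Otx2, which photoreceptors also express, was at 103% and 96.2%. Bipolar genes summed to 1012 CPM in AAV206-GFP replicate 5 against 1374 to 1607 CPM in the rest of its group, and to 1188 CPM in AAV2-GFP replicate 1 against 1442 to 1589 CPM. Amacrine genes summed to 1327 CPM in AAV2-GFP replicate 1 against 1434 to 1584 CPM, but to 1457 CPM in AAV206-GFP replicate 5, within the 1448 to 1552 CPM of its group. Horizontal cell genes summed to 307 CPM against 386 to 409 CPM in AAV2-GFP replicate 1, and to 386 CPM against 396 to 456 CPM in AAV206-GFP replicate 5. Leukocyte genes were high in AAV2-GFP replicate 1, as given above, and at 8.31 CPM in AAV206-GFP replicate 5, within the range of its group. Other lists moved in these libraries as well. In AAV2-GFP replicate 1 Müller glia genes summed to 2622 CPM against 2818 to 3486 CPM in the rest of the group, ganglion cell genes to 1118 against 1215 to 1313 CPM, and 36 other inner retinal transcription factors to 2175 against 2246 to 2355 CPM. In AAV206-GFP replicate 5 the other transcription factors were lowest too, at 2010 against 2029 to 2206 CPM, whereas ganglion cell genes were highest, at 1199 against 1069 to 1148 CPM. The rod genes Gnat1, Sag, Nrl and Pde6b were also highest of their group there, Gnat1 at 10919 against 9278 to 10293 CPM. Not every gene of the rod and cone list was: Gnat2 was lowest of its group there, at 170 against 176 to 192 CPM. The part of these cell types in the low levels of the factors was not tested.

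**Figure D4:**
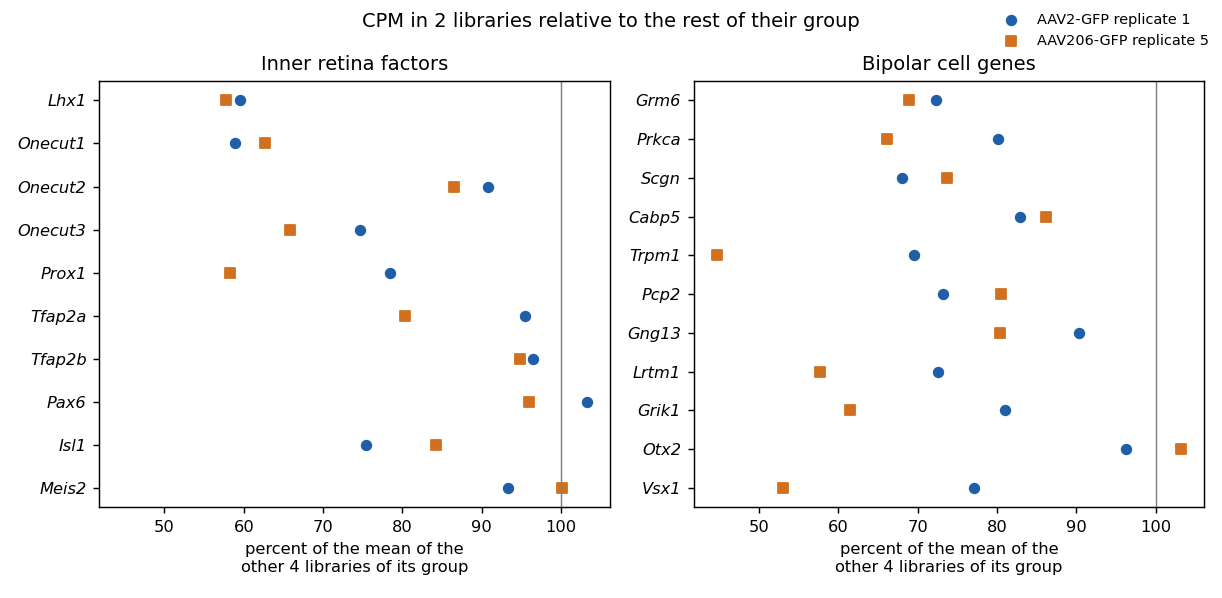
Level in AAV2-GFP replicate 1 (blue circles) and AAV206-GFP replicate 5 (orange squares) as a percentage of the mean of the other 4 libraries of the same group, for the 10 factors (left) and 11 bipolar cell genes (right); the grey line is 100%. Prox1 is at 78.5% and 58.3%, Trpm1 at 69.6% and 44.7%, and Pax6 at 103% and 96.0%.

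Beyond the 10, other transcription factors of inner retinal cells and their progenitors were examined as a list of 36, of which 33 were tested. With edgeR 3 passed the threshold, all lower with AAV206-GFP and 0 higher, which is 9.09% of the list. Of all tested genes 11.2% passed in either direction and 5.3% passed as lower. The median log2 fold change of the list was -0.045, with 21 of 33 negative. Bhlhe22, a basic helix-loop-helix factor of amacrine and OFF bipolar cells, fell from 41.7 ± 3.60 to 32.0 ± 3.53 CPM (SD, n = 5), which gave a log2 fold change of -0.38 ± 0.087 (SE; edgeR adjusted p = 0.0116). Its 5 AAV2-GFP libraries held 37.9, 37.8, 45.2, 42.8 and 44.7 CPM and its AAV206-GFP libraries 33.7, 36.6, 32.7, 27.7 and 29.3 CPM, so the groups did not overlap. Neurod1, a basic helix-loop-helix factor found in photoreceptors and amacrine cells, fell from 544 ± 21.2 to 459 ± 33.8 CPM, which gave a log2 fold change of -0.25 ± 0.060 (SE; edgeR adjusted p = 0.0166), again without overlap. Six3, a homeodomain factor of eye development retained in amacrine cells, fell from 114 ± 6.53 to 96.2 ± 6.89 CPM, which gave a log2 fold change of -0.24 ± 0.064 (SE; edgeR adjusted p = 0.0266), and its groups overlapped by 1 library. Bhlhe22 passed in all 21 alternatives, Neurod1 in 20 and Six3 in 14, of which 5 were fits that left out 1 library. The number passing was 5 without AAV2-GFP replicate 1 and 5 without AAV206-GFP replicate 5. It ranged from 2 to 5 over all fits without 1 library and from 2 to 4 over the other alternatives. Ptf1a and Foxn4, which act earlier in the same developmental pathway, had at most 0.46 and 0.36 CPM in any library and were not tested.

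**Figure D5:**
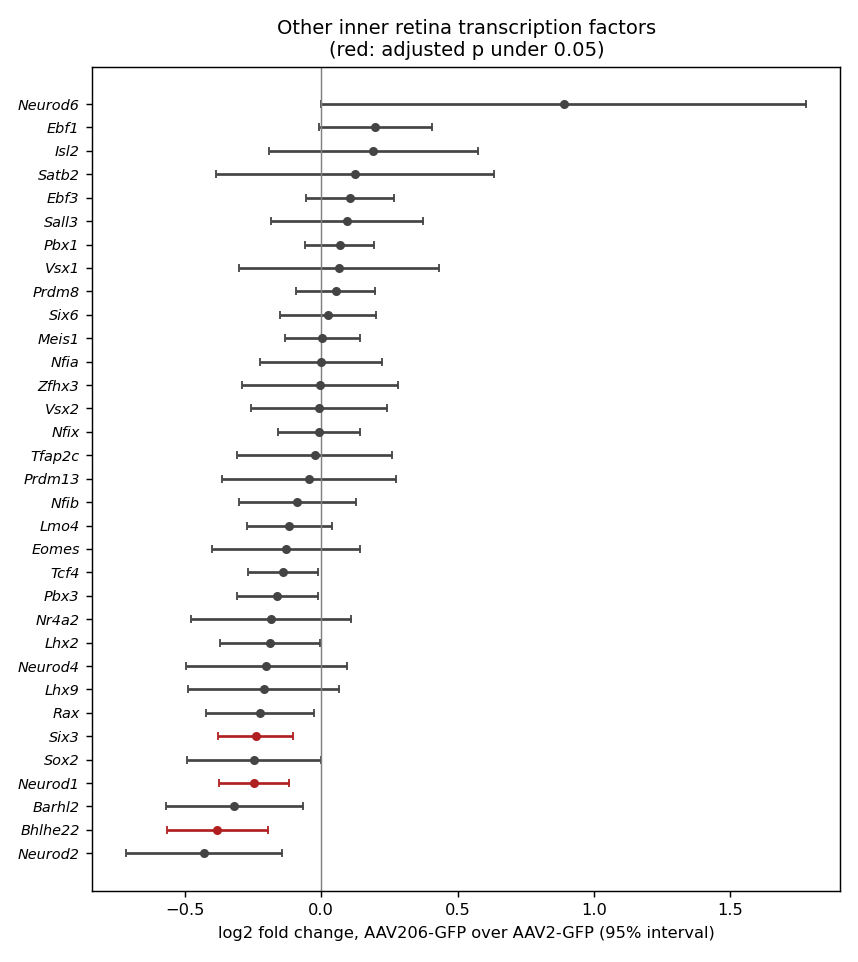
Log2 fold change of AAV206-GFP over AAV2-GFP with 95% intervals for the 33 tested factors of the second list, in order of size; red marks an adjusted p-value under 0.05. Bhlhe22, Neurod1 and Six3 are the 3 marked genes, at -0.38, -0.25 and -0.24.

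Close relatives of the factors differed widely in level. Of 10 paralogs, 7 were tested and 0 passed, with 1 at an unadjusted p under 0.05. Lhx5 and Pax4 were at 0 counts in every library. Within the AP-2 family Tfap2c had 14.2 ± 2.58 CPM, Tfap2d 2.23 ± 0.69 CPM and Tfap2e 1.89 ± 0.61 CPM with AAV2-GFP (SD, n = 5), and their log2 fold changes were -0.024, 0.26 and -0.35. Meis1 was the most abundant relative in CPM, at 65.1 ± 3.53 and 65.3 ± 4.23, and carried decimals in all 10 libraries. Meis3 was at 14.6 ± 1.72 and 14.9 ± 3.93 CPM, and Isl2 at 5.06 ± 0.73 and 5.77 ± 1.12 CPM. Pax2, at 0.70 ± 0.38 and 1.01 ± 0.61 CPM, was not tested. Prox2 had the largest estimate, 5.46 ± 1.29 and 8.10 ± 1.26 CPM, which gave a log2 fold change of 0.57 ± 0.18 (SE; edgeR adjusted p = 0.0546), and with DESeq2, limma-voom and 3 other alternatives, among them the fit without AAV2-GFP replicate 2, it passed.

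The cells that these factors mark were described by other genes as well. Among 6 tested horizontal cell genes, such as Calb1 and the gap junction gene Gja10, 0 passed with edgeR and 1 had an unadjusted p under 0.05; the median log2 fold change was 0.061. That gene was Slc4a3, an anion exchanger at 142 ± 17.3 and 173 ± 17.6 CPM (SD, n = 5; edgeR adjusted p = 0.0516), whose groups did not overlap and which passed in 5 of 21 alternatives, DESeq2 among them. Among 19 amacrine cell genes, which include genes for making, loading or taking up GABA, glycine and acetylcholine, neuropeptide genes and other subtype markers such as Calb2 and Th, 0 passed with edgeR, 2 had an unadjusted p under 0.05 and the median log2 fold change was -0.029. These were the GABA-synthesising enzyme Gad2 and the choline transporter Slc5a7, which were 0.22 and 0.32 higher on the log2 scale (edgeR adjusted p = 0.0542 and 0.0592). DESeq2 called both, as did the fit without AAV2-GFP replicate 1, and 1 of them passed without AAV2-GFP replicate 5 or AAV206-GFP replicate 5.

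In the bipolar list 2 of 11 genes passed, or 18.2% where 11.2% of all tested genes did, and both were lower with AAV206-GFP (5.3% of all tested genes): Grm6, the ON bipolar glutamate receptor, with a log2 fold change of -0.66 (edgeR adjusted p = 0.00225), and Scgn, a calcium-binding protein of cone bipolar cells, with -0.40 (edgeR adjusted p = 0.0458). The median log2 fold change of the 11 was -0.025, with 6 negative. Trpm1 and Prkca had the highest estimates, 0.18 and 0.16, and did not pass with edgeR. Decimals in all 10 libraries leave the level of Grm6 uncertain, and Scgn passed in 1 of the 10 fits without 1 library. The count for the list was 3 without AAV2-GFP replicate 1, 2 without AAV206-GFP replicate 1, and 1 in each of the other 8 fits.

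The remaining lists covered cell types that share these factors or could be carried over in dissection, and leukocytes, whose place in or outside the retina was not tested. Their counts stand beside the 11.2% of all tested genes that passed, 5.95% as higher and 5.3% as lower. Of 11 ganglion cell genes 1 passed as lower (Pou4f1, a log2 fold change of -0.37, edgeR adjusted p = 0.00623) and 0 as higher, which is 9.09% of the list and near that share, with a median log2 fold change of -0.16; DESeq2 and the fit without AAV2-GFP replicate 1 called 2. For 7 Müller glia genes the count was 0 with edgeR, 3 at an unadjusted p under 0.05 and 2 with DESeq2, and the median was -0.19; leaving out AAV2-GFP replicate 1 gave 2 and leaving out AAV206-GFP replicate 1 gave 1. Of the rod and cone genes, Opn1mw, Gnat2 and Nr2e3 passed as higher with AAV206-GFP, with log2 fold changes of 0.47, 0.24 and 0.25. Nr2e3 passed in 11 of 21 alternatives. The estimates of Gnat1, Nrl and Pde6b were negative, at -0.15, -0.12 and -0.050, and did not pass with edgeR. Gnat1 passed in 3 of 21 alternatives and Nrl in 1 of 21. No share is given for this list, because 1 of its genes is not reported here. In the pigment epithelium list 5 of 8 genes were tested and 1 passed as lower, Rgr (-0.79, edgeR adjusted p = 0.0328), which did not pass in 7 of the 10 fits without 1 library. Of the 5, 4 had a negative estimate and 3 an unadjusted edgeR p under 0.05. Tyrp1 went the other way, at 0.72 (edgeR adjusted p = 0.175). Of 12 lens genes 3 were tested and 2 passed as lower, Cryaa and Crybb2, a count that was 0 without AAV2-GFP replicate 5, 1 without AAV206-GFP replicate 3 and 4 without AAV206-GFP replicate 1. Both genes passed the filter on low counts through their AAV2-GFP libraries, so the filter favoured a call as lower. Outside replicate 1, the AAV206-GFP libraries held at most 0.807 CPM of Cryaa and 0.339 CPM of Crybb2. For leukocytes 5 of 12 were tested and 2 passed as lower, Cd74 and C1qa; without AAV2-GFP replicate 1 the count was 0, and over all fits without 1 library it ranged from 0 to 5. Of 8 cornea, iris and ciliary body genes 1 was tested and it did not pass (0 at an unadjusted p under 0.05 with edgeR, 0 with DESeq2); their sum was 2.43 to 2.82 CPM with AAV2-GFP and 1.92 to 4.75 CPM with AAV206-GFP, with Krt14 at 0 throughout.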

How the data were processed

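Each of the 10 libraries was assigned to its group and replicate from its title. Per the submitters' processing notes, STAR 2.7.10b, RSEM 1.3.1 and the build mm10 were used; the annotation and strand setting were not given in the sources used here. The authors deposited estimated counts per gene, which were rounded to whole numbers. Genes with decimals may share reads with another gene. Symbols, lengths and coordinates came from GENCODE M21 (GRCm38), which named 91.3% of the 57010 rows.

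Genes were kept by filterByExpr (minimum count 10), scaled by TMM factors and tested with edgeR 4.0.16 in R 4.3.3 by the quasi-likelihood F test without covariates, Benjamini-Hochberg adjusted over 15539 genes and called under 0.05. A positive log2 fold change means a higher level with AAV206-GFP. Standard errors are the absolute log2 fold change over the square root of F, and 95% intervals use the test's degrees of freedom. Alternatives were other scalings, filters and tests (DESeq2 1.42.0, limma 3.58.1), unrounded counts, a replicate block and left-out libraries. The procedure was tested on simulated data.

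The factors and gene lists were chosen with earlier results of these data known. Named genes are the 10 factors, paralogs with their levels, and the genes past the threshold in each list. At most the 6 with the smallest p-values are named per list. Slc4a3, Gad2, Slc5a7, Tyrp1, Ptf1a, Foxn4 and the bipolar genes compared by library were added after their values were seen. So were the rod genes Gnat1, Sag, Nrl and Pde6b. One gene of the rod and cone list is not reported here. Total counts of 10989843 to 12752604 set the floor of 3 counts at 0.232 to 0.274 CPM, which covers counting error only. Within groups, libraries differed by more than sampling noise (chi-square per degree of freedom 3.69 to 22.3), so none was treated as a duplicate.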

Additional observations from a re-analysis of the deposited data

Results flagged for a closer look

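In groups of 5 libraries, a library is given here where its gap to the nearest other library, divided by the range of its group (Dixon's ratio), was above 0.71. Of 50 group values examined, over the 10 factors and the other genes past the threshold in a list, 8 were above it. Among the 20 of the factors it was 3. If the values were independent and normally distributed, 2.5 and 1 would be reached by chance. They were not independent, since genes share libraries, and the other genes were chosen for passing the threshold. No conclusion is drawn from these numbers. Prox1 was low in AAV2-GFP replicate 1, at 148 CPM against 184 to 196 CPM in the other libraries of its group (ratio 0.747). Isl1 was low in the same library, at 49.2 against 64.0 to 66.0 CPM (ratio 0.882), as was the bipolar gene Grm6, at 127 against 168 to 181 CPM (ratio 0.771). Tfap2a was high in AAV2-GFP replicate 5, at 38.4 against 31.5 to 33.3 CPM (ratio 0.736).

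For the immune genes, AAV2-GFP replicate 1 was high, with Cd74 at 224 against 0.427 to 3.55 CPM (ratio 0.986), and C1qa at 48.6 against 3.42 to 10.7 CPM (ratio 0.840). AAV206-GFP replicate 1 was high for the crystallins Cryaa, at 6.31 against 0.0863 to 0.807 CPM (ratio 0.884), and Crybb2, at 2.52 against at most 0.339 CPM (ratio 0.866). For both genes the lowest of the other libraries were below the floor of 3 counts, where levels are not distinguished. Prox1 in AAV206-GFP replicate 5, at 115 CPM, was the lowest value of that gene but its gap did not reach the limit.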

How the results depend on the processing

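In each of 21 alternatives 0 of the 10 factors passed, the smallest adjusted p being 0.183 for Meis2 without AAV2-GFP replicate 1. The sign differed from the reported one in 17 of 210 estimates, all for factors whose estimate lay near 0 or whose fit lost libraries. Prox1 was 0.0078 under upper-quartile scaling, 0.0035 with a minimum count of 30 and 0.00036 with DESeq2; with AAV2-GFP replicates 1 and 4 left out together, Onecut1 was -0.10 and Isl1 -0.0096. Over fits without 1 library, estimates ranged from -0.010 to 0.059 for Onecut2, from -0.064 to 0.13 for Prox1 and from -0.015 to 0.021 for Pax6. Lhx1, Onecut3, Tfap2a, Tfap2b and Meis2 kept their sign throughout. The count over all genes was 1085 with the replicate block, 985 with AAV2-GFP replicates 1 and 4 left out, and 991 to 1912 without 1 library. Same-numbered libraries correlated at -0.052 to 0.041 in their deviations from the group means, and none correlated best with its own number. The labels give no pairing, and a lack of correlation cannot show whether same-numbered mice were handled together. For Lhx1, Onecut1 and Onecut3, with 39 to 121 counts a library, differences of 1.5-fold lay within the interval; counting alone gives a spread of 11.8% to 12.2% of the mean at this depth, and the spread between mice was 20.6% to 31.6%.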
